A study of Rattus norvegicus with 6 samples.

Results

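The genes described here encode enzymes that build serine, one-carbon units, proline, asparagine and cysteine. There were 10 of them, taken by gene name from the 23139 genes of the count tables: Phgdh, Psat1 and Psph for serine, Shmt2, Mthfd2 and Mthfd1l for one-carbon units in mitochondria, Aldh18a1 and Pycr1 for proline, Asns for asparagine and Cth for cysteine. Serine is made from a glycolytic intermediate, and mitochondria then take a carbon from it, load it onto folate and export it as formate for the synthesis of purines, thymidylate and methyl groups. Proline and asparagine are derived from glutamate and aspartate. Many genes of these routes carry binding elements for ATF4, the transcription factor that is translated more efficiently when amino acids run short or when the endoplasmic reticulum or the mitochondria are under stress.

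The 6 libraries were prepared from primary microglia, the resident macrophages of the brain, which were shaken off cultures of dissociated cortices of Wistar rats at postnatal day 1 and then sorted with beads against CD11b/c. One day after isolation, all cells received 100 ng/mL lipopolysaccharide (LPS), the endotoxin of Gram-negative bacteria, which activates microglia. The LPS group (n = 3) was given LPS with DMSO, the solvent, and the LPS/siponimod group (n = 3) was given LPS with 50 µM siponimod, a modulator of sphingosine-1-phosphate receptors used against multiple sclerosis. Cells without LPS are not among the libraries, so that every value compares LPS/siponimod with LPS. The study lysed or fixed its cultures after 1 or 3 days, and which of these applies to the sequenced cells could not be told with certainty from its methods.

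Library depth ranged from 38080379 to 46643859 counts. Levels are given as CPM, the count of a gene divided by the total of its library on a common scale, with edgeR's TMM factors applied, and fold changes as log2 values with their standard errors. Genes were called differentially expressed (DEGs) when they changed by 1.5-fold or more and their adjusted p did not exceed 0.05 in edgeR's quasi-likelihood test across 11977 genes. With 3 libraries against 3, an exact permutation test of 1 gene gives at best p = 0.10, so that each adjusted p also rests on the spread that edgeR estimates over all genes. The measurements are of RNA in bulk cultures, in which fewer expressing cells and less RNA per cell cannot be told apart.

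The libraries were checked against marker genes before the comparison. The 12 microglial markers had summed levels between 3249 and 9222 CPM, with Csf1r, a receptor that microglia need to survive, as the most abundant by counts. Among them, 3 were lower DEGs with LPS/siponimod, namely Aif1, Itgam and Cx3cr1, and none was a higher DEG. Without the libraries numbered 3 these calls were lost (quasi-likelihood adjusted p = 0.0595, 0.0527 and 0.063) and C1qa was the only lower DEG of the list (0.0416). The log2 fold changes of Aif1, Itgam and Cx3cr1 were then -1.6, -0.83 and -3.72, against -1.88, -0.87 and -3.65 with all libraries. In the fits that left out 1 library, Aif1, Itgam and Cx3cr1 were DEGs in 2, 3 and 2 of 6, with adjusted p-values of up to 0.0982, 0.0618 and 0.147. Markers of other cell types were unevenly spread. Several genes of the oligodendrocyte lineage and of astrocytes had most of their counts in LPS replicate 3 and LPS/siponimod replicate 3. Pdgfra, a receptor of oligodendrocyte precursors, had 5, 4 and 284 counts in LPS replicates 1, 2 and 3 and 1, 4 and 81 in the LPS/siponimod libraries. For Sox9, a transcription factor of astrocytes, 0, 5 and 99 reads were counted in the LPS group against 3, 1 and 59 in the LPS/siponimod group. The results on the 10 genes are therefore also given without the libraries numbered 3.

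Of the 10 genes, 7 rose with LPS/siponimod and none fell. The number that rose was 4 without LPS replicate 2 or without LPS/siponimod replicate 1, and between 5 and 7 without any other single library. Over all genes tested, 13.6% were DEGs with a rise and 11.7% DEGs with a fall. The 7 were Asns, Psat1, Phgdh, Mthfd2, Psph, Shmt2 and Aldh18a1, with log2 fold changes between 1.4 and 4.27. Pycr1 and Cth had positive log2 fold changes that did not pass the test, and that of Mthfd1l was 0.06. The median of the 10 was 2.12, beside -0.02 over all genes tested. By pair of same-numbered libraries it was 2.00, 2.19 and 2.17, whereas the medians of all genes tested were 0.01, 0.00 and -0.02. The LPS/siponimod libraries were all above the LPS libraries for 7 of the 10 genes, against 25.3% of all genes tested. In all 3 pairs 8 of the 10 were higher with LPS/siponimod, against 35.4% of all genes tested. Summed over the 10, the level was 81.1, 90.9 and 139.7 CPM in LPS replicates 1, 2 and 3, and 467.5, 519.1 and 579.2 CPM in the LPS/siponimod libraries.

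**Figure D1:**
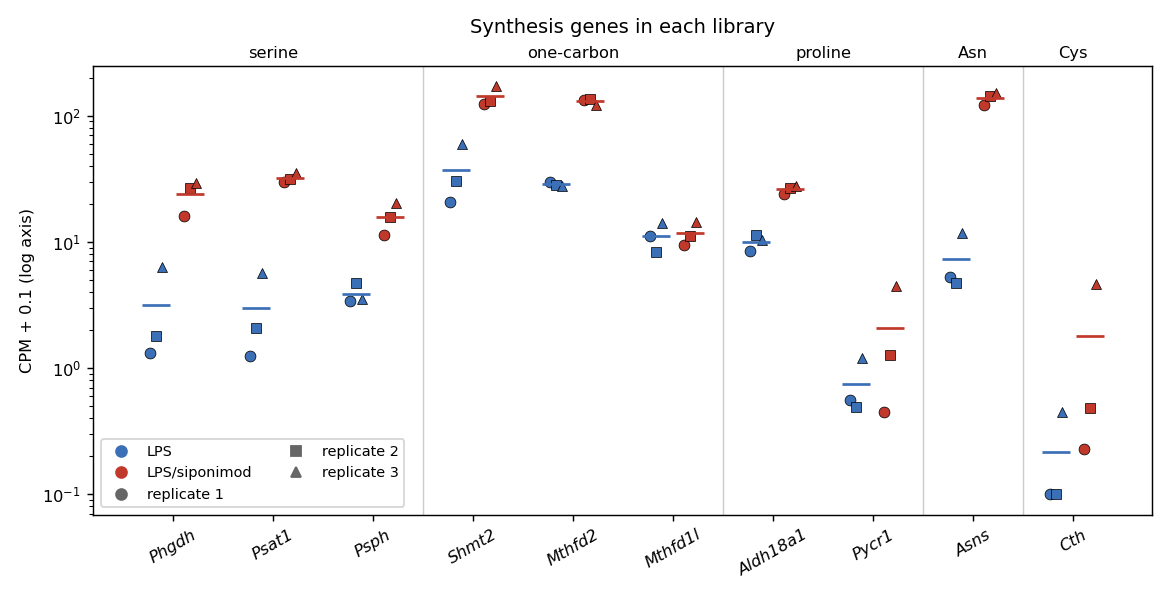
Level of each of the 10 genes in each library, as CPM with 0.1 added, on a log axis. Points are single libraries, their shape gives the replicate number and horizontal lines are group means. The 7 genes that rose have no overlap between the groups, whereas Mthfd1l, Pycr1 and Cth overlap.

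All 3 genes of serine synthesis rose. Phgdh encodes phosphoglycerate dehydrogenase, which catalyses the first committed step. Its level was 1.21, 1.69 and 6.22 CPM in LPS replicates 1, 2 and 3, and 15.8, 26.5 and 28.9 CPM in LPS/siponimod replicates 1, 2 and 3. The lowest LPS/siponimod library was thus above the highest LPS library, and LPS replicate 3 stood above the other LPS libraries. The log2 fold change was 2.96 (standard error 0.67, edgeR quasi-likelihood adjusted p = 0.0247). Psat1, the aminotransferase of the next step, which takes its amino group from glutamate, was at 1.13, 1.97 and 5.54 CPM with LPS and at 29.5, 31.2 and 34.9 CPM with LPS/siponimod. The treated libraries lay close together and the LPS libraries did not, with coefficients of variation of 8.58% and 81.2%. The log2 fold change of Psat1 was 3.47 (standard error 0.59, quasi-likelihood adjusted p = 0.0121).

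Psph encodes the phosphatase that releases serine in the last step. Its level was 3.26, 4.59 and 3.42 CPM with LPS and 11.2, 15.6 and 20.2 CPM with LPS/siponimod. In contrast to Phgdh and Psat1, Psph was not highest in replicate 3 of the LPS group, and the fit gave a log2 fold change of 2.05 (standard error 0.28, adjusted p = 0.00779, quasi-likelihood test). Leaving out 1 library at a time, Psph was a DEG in all 6 fits. Phgdh stayed a DEG in the fit without LPS replicate 3 (log2 fold change 4.03, adjusted p = 0.00999). Without any of the other 5 libraries its log2 fold change lay between 2.61 and 3.18 and its adjusted p between 0.0519 (LPS/siponimod replicate 2) and 0.0914 (LPS replicate 2), the remaining values being 0.0561 (LPS replicate 1), 0.0686 (LPS/siponimod replicate 1) and 0.0743 (LPS/siponimod replicate 3). Psat1 lost its call without LPS replicate 2 (adjusted p = 0.0601) and without LPS/siponimod replicate 1 (0.0502), at log2 fold changes of 3.28 and 3.51.

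Within the mitochondrial one-carbon route, Shmt2 and Mthfd2 rose and Mthfd1l did not pass the test. Shmt2 encodes the serine hydroxymethyltransferase that splits serine into glycine and a one-carbon unit. Its level was 20.6, 30.2 and 59.4 CPM in LPS replicates 1, 2 and 3 and 123.8, 130.4 and 171.2 CPM with LPS/siponimod, without overlap (log2 fold change 1.95, standard error 0.40, quasi-likelihood adjusted p = 0.0192). The adjusted p of Shmt2 passed 0.05 without LPS replicate 2 (0.0808), LPS/siponimod replicate 1 (0.067) or LPS/siponimod replicate 3 (0.065). Its log2 fold change was 1.85, 2.03 and 1.79 in these fits. Mthfd2, a dehydrogenase and cyclohydrolase that oxidises the folate-bound unit, had 29.9, 28.0 and 27.8 CPM with LPS and 131.7, 134.6 and 122.1 CPM with LPS/siponimod. It was the tightest of the 10, with a coefficient of variation of 4.05% in the LPS group and 5.05% in the LPS/siponimod group. Its log2 differences within the pairs were 2.14, 2.26 and 2.13 (fit 2.18, standard error 0.11, quasi-likelihood adjusted p = 0.00174).

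Mthfd1l encodes the mitochondrial formyltetrahydrofolate synthetase, which releases formate at the end of the same route. Its levels were 11.1, 8.23 and 13.97 CPM with LPS and 9.32, 11.1 and 14.2 CPM with LPS/siponimod. The groups overlapped, and the differences within pairs were -0.25, 0.43 and 0.03 (fit 0.06, standard error 0.26, quasi-likelihood adjusted p = 0.885). The sign of the fitted value turned without LPS replicate 2 (-0.10) and without LPS/siponimod replicate 3 (-0.12).

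Asns, which encodes the synthetase that makes asparagine from aspartate with glutamine as nitrogen donor, had the largest log2 fold change of the 10. Its level was 5.16, 4.65 and 11.6 CPM in LPS replicates 1, 2 and 3 and reached 121.7, 141.5 and 151.3 CPM with siponimod added. The log2 fold change was 4.27 (standard error 0.41, quasi-likelihood adjusted p = 0.00496), which is 19.3-fold, and it ranged from 4.06 to 4.82 with single libraries left out, a DEG in each case. LPS replicate 3 was again the highest of its group.

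For proline, the gene of the entry step rose, and Pycr1, 1 of the genes for the last step, did not pass the test. Aldh18a1 encodes the synthase that turns glutamate into pyrroline-5-carboxylate. Its level was 8.31, 11.1 and 10.3 CPM with LPS and 24.0, 26.8 and 27.6 CPM with LPS/siponimod, again without overlap (log2 fold change 1.4, standard error 0.16, quasi-likelihood adjusted p = 0.00647), and it was a DEG in all 6 fits with a library left out. Pycr1 encodes a mitochondrial reductase that finishes proline. It had few reads, with 17, 15 and 41 counts in the LPS group against 16, 52 and 179 in the LPS/siponimod group. In pair 1 it was not higher with LPS/siponimod (log2 difference -0.37), while pairs 2 and 3 gave 1.47 and 1.94 (fit 1.58, standard error 0.95, quasi-likelihood adjusted p = 0.242). Without LPS/siponimod replicate 3 the fitted value was 0.22. Pycr3, another reductase gene of the last step, had more reads, with 88.9, 114.8 and 134.3 CPM in the LPS group. With LPS/siponimod Pycr3 was at 85.1, 90.4 and 92.4 CPM and was not a DEG (log2 fold change -0.34, standard error 0.17, quasi-likelihood adjusted p = 0.178).

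Cth encodes cystathionine gamma-lyase, which releases cysteine at the end of transsulfuration. Its counts were 0, 0 and 13 in LPS replicates 1, 2 and 3 and 6, 17 and 186 in LPS/siponimod replicates 1, 2 and 3. Each LPS/siponimod library held more than the LPS library of the same number, but the groups overlapped, and most of the reads came from the pair numbered 3. The fit gave a log2 fold change of 3.82 (standard error 1.86, quasi-likelihood adjusted p = 0.164). With the replicate number as a block Cth was a DEG (log2 fold change 4.06, standard error 0.64, quasi-likelihood adjusted p = 0.0115). Without LPS/siponimod replicate 3 the fitted value was 1.11 (adjusted p = 0.656), and without LPS replicate 3 it was 9.14 (0.0927). The 9.14 is set against LPS libraries with 0 counts, so that its size depends on how zero counts are handled. Without both libraries numbered 3, Cth fell under the filter on low counts. With the block 8 of the 10 were thus DEGs with a rise, against 17.7% of all genes tested, and the call of no other of the 10 changed.

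**Figure D2:**
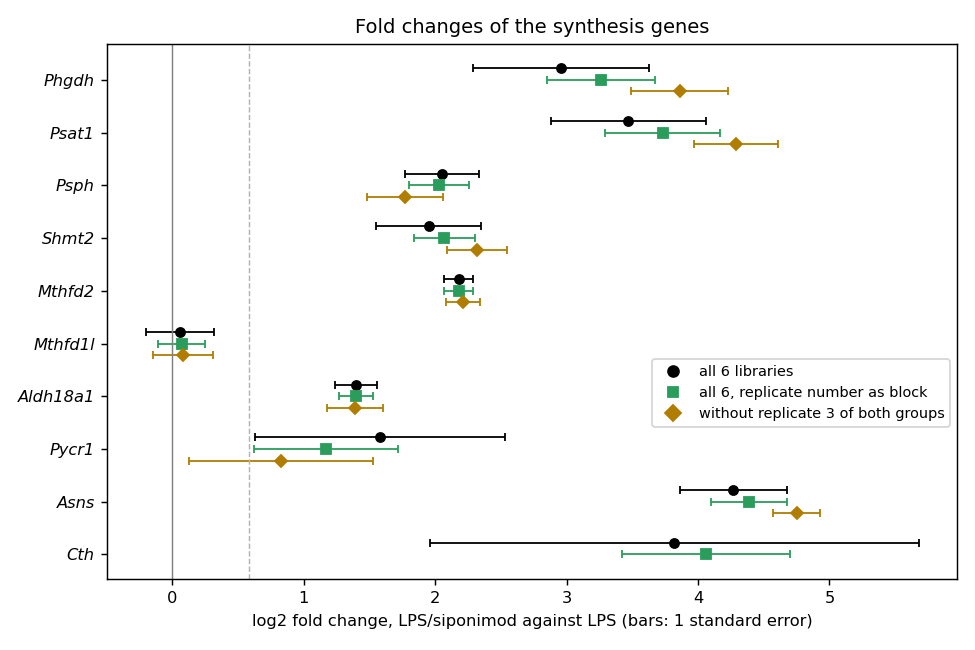
Log2 fold changes of the 10 genes from edgeR's quasi-likelihood fit, with bars of 1 standard error, for all libraries, for all libraries with the replicate number as a block, and without the libraries numbered 3. The dashed line marks a fold change of 1.5, and Cth has no value in the last setting. Phgdh, Psat1, Shmt2 and Asns lie further to the right without the libraries numbered 3 than with them, Psph and Pycr1 further to the left.

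For most of these genes replicate 3 was the highest library of its group. In the LPS group, 7 of the 10 were highest in replicate 3, against 40.8% of all genes tested, and in the LPS/siponimod group 9 of the 10 were, against 30.2%. Only Mthfd2 was highest elsewhere in the LPS/siponimod group. Of the 10 astrocyte markers 7 were also highest in replicate 3 of both groups, as were 6 of the 10 of the oligodendrocyte lineage and 8 of the 10 of neurons. None of the 12 microglial, 10 fibroblast and mural or 7 endothelial markers was.

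Summed over the astrocyte list without Slc1a3, the most abundant by counts, the level was 6.53, 4.05 and 21.6 CPM in the LPS group against 2.43, 3.02 and 11.8 CPM in the LPS/siponimod group. With Slc1a3, the sums were 47.0, 24.2 and 37.1 CPM and 28.7, 29.1 and 67.6 CPM. Gjb6, a connexin of astrocytes, had no count in any library. The oligodendrocyte list without Cnp, an interferon-inducible gene in other cells, summed to 5.37, 5.37 and 36.0 CPM with LPS and 11.4, 10.3 and 22.6 CPM with LPS/siponimod, and with Cnp to 149.9, 135.9 and 149.0 CPM and 49.2, 67.8 and 60.0 CPM. Of these sums Mbp supplied 4.02, 4.18 and 2.26 CPM with LPS and 10.1, 8.9 and 15.9 CPM with LPS/siponimod. Mog and Mag, which mark mature oligodendrocytes, did not exceed 3 counts in any library. The neuronal list without Tubb3 was at 0.108, 0.156 and 5.41 CPM with LPS and at 2.13, 3.56 and 10.8 CPM with LPS/siponimod, where Snap25 supplied 94, 153 and 81 counts in replicates 1, 2 and 3, and with Tubb3 at 1.75, 1.06 and 11.8 CPM and 6.48, 9.30 and 22.5 CPM. Fibroblast and mural markers, led by Fn1, summed to 12.6, 12.9 and 10.6 CPM in the LPS group against 19.5, 19.5 and 29.1 CPM in the LPS/siponimod group, without overlap, and Rgs5 was at 0. Without Fn1 the sums overlapped, with 6.10, 4.78 and 4.01 CPM in the LPS group against 11.97, 4.75 and 8.76 CPM in the LPS/siponimod group. Endothelial markers, led by Cdh5, were lower with LPS/siponimod without overlap, with 167.6, 214.9 and 93.7 CPM against 39.7, 84.4 and 28.4 CPM, and Kdr and Emcn were at 0. Without Cdh5 the endothelial sums did not overlap either, with 50.1, 117.8 and 31.7 CPM against 7.51, 26.8 and 10.7 CPM.

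A few genes of these lists were DEGs themselves. Snap25, a synaptic protein, Dcn, a matrix proteoglycan of fibroblasts, and Mbp, a myelin protein, rose together with the 7 genes. Dcn had 3, 0 and 4 counts in the LPS libraries against 456, 49 and 178 in those with siponimod (log2 fold change 6.28, quasi-likelihood adjusted p = 0.0155). Mbp had 149, 161 and 84 counts against 470, 397 and 652 (log2 fold change 1.74, quasi-likelihood adjusted p = 0.0172), and Snap25 had a log2 fold change of 6.9 (adjusted p = 0.00539). Aldoc, Cnp and Flt1 fell, and no other marker outside the microglial list was a DEG. Without the libraries numbered 3, Dcn (quasi-likelihood adjusted p = 0.0515) and Aldoc (0.0746) lost their calls, at log2 fold changes of 7.0 and -1.26. In the same fit Tubb3 became a DEG with a rise (0.0406) and Col1a1 one with a fall (0.0488). With 1 library left out at a time, Snap25, Cnp and Flt1 were DEGs in all 6 fits. Dcn and Mbp were DEGs in 3 of them, with adjusted p-values of up to 0.0688 (without LPS/siponimod replicate 1) and 0.0623 (without LPS replicate 2), and Aldoc in 1, with up to 0.147 (without LPS/siponimod replicate 1). The part of these cell types in the values of the 10 genes was not tested.

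Without the libraries numbered 3, the same 7 genes were DEGs. Phgdh then had a log2 fold change of 3.86 (standard error 0.37, quasi-likelihood adjusted p = 0.0291), Psat1 4.29 (0.32, adjusted p = 0.0216), Shmt2 2.32 (0.23, adjusted p = 0.0291), Asns 4.75 (0.18, adjusted p = 0.008) and Psph 1.77 (0.29, adjusted p = 0.0355). In these 4 libraries Pdgfra, Sox10, Gfap and Aqp4 had at most 5 counts each, while Mbp, Snap25 and Dcn were counted as given above.

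**Figure D3:**
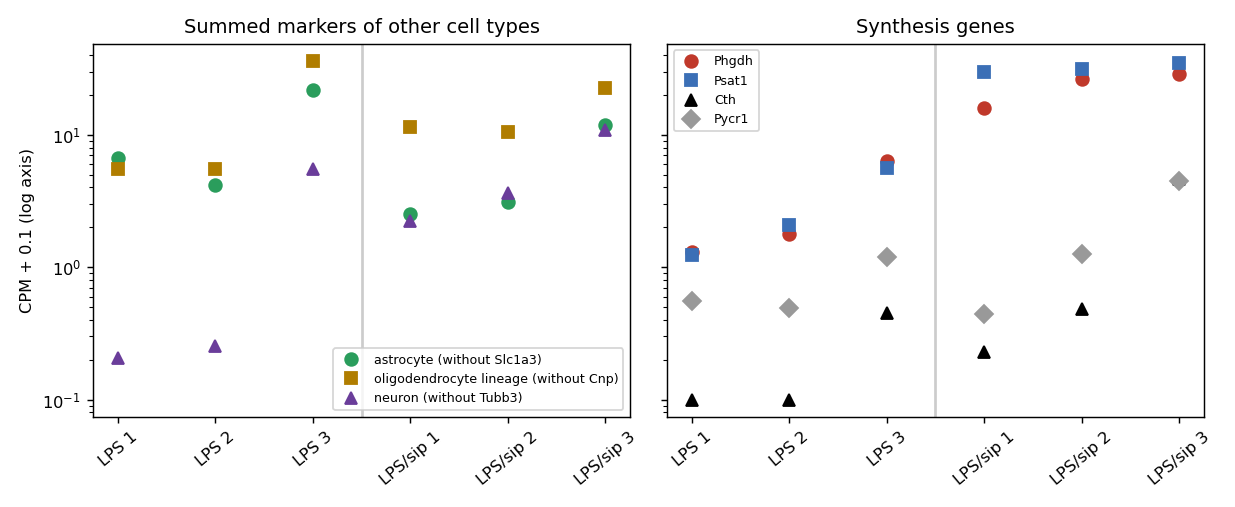
CPM with 0.1 added, on a log axis, in each library. Left, summed markers of astrocytes, of the oligodendrocyte lineage and of neurons, each without its most abundant gene. Right, Phgdh, Psat1, Cth and Pycr1. The marker sums of astrocytes and the oligodendrocyte lineage stand out in replicate 3 of both groups, and the neuronal sum is also higher with LPS/siponimod in every pair. With LPS/siponimod most of the oligodendrocyte sum is Mbp. Phgdh and Psat1 separate the groups, and Cth and Pycr1 are highest in replicate 3 of each.

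Several of these enzymes have an isoenzyme that is encoded by another gene, and the ratio of the 2 counts within a library does not depend on library scaling. For Shmt2 and the cytosolic Shmt1, the log2 ratio of counts was -0.29, -0.16 and 1.28 in the LPS group against 2.78, 2.73 and 3.55 in the LPS/siponimod group. The difference of group means was 2.74 (SD 0.87 with LPS and 0.46 with LPS/siponimod, n = 3 each, exact two-sided permutation test p = 0.10, the smallest this design allows). For Mthfd2 and Mthfd2l, another mitochondrial dehydrogenase, it was 1.18, 0.96 and 0.17 with LPS against 3.24, 2.98 and 2.91 with siponimod added, a difference of 2.27 (exact permutation p = 0.10). Mthfd1l and the cytosolic Mthfd1 gave -0.30, -1.06 and -0.64 against 0.36, 0.41 and 0.92, a difference of 1.23 (exact permutation p = 0.10). None of these 3 ratios overlapped between the groups.

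After adjustment over the 4 isoenzyme comparisons made, p was 0.133 for each of these ratios. Each was higher with LPS/siponimod in every pair of same-numbered libraries, by 2.27 to 3.07 for Shmt2 and Shmt1, and by 0.66 to 1.57 for Mthfd1l and Mthfd1.

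**Figure D4:**
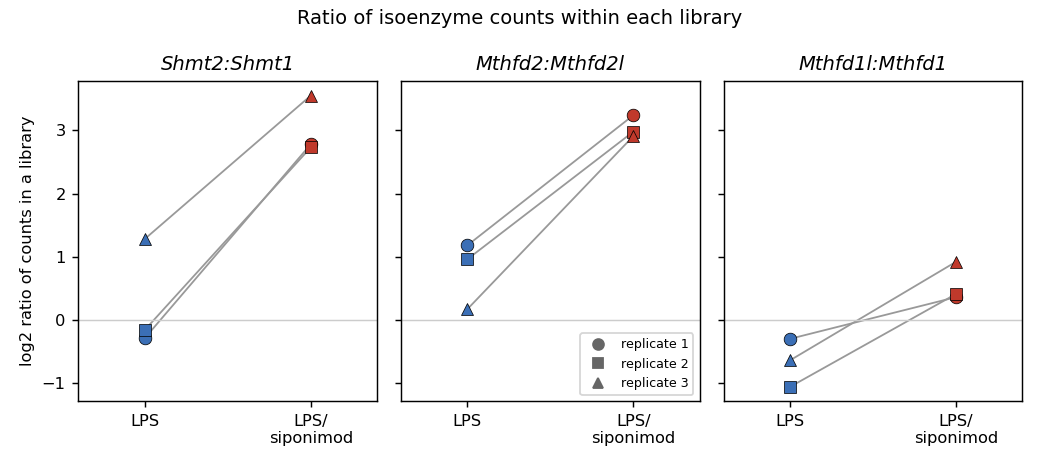
Log2 ratio of the counts of 2 isoenzyme genes within each library, with lines joining same-numbered libraries. The LPS/siponimod libraries are all above the LPS libraries for Shmt2:Shmt1, Mthfd2:Mthfd2l and Mthfd1l:Mthfd1.

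None of the isoenzyme genes Shmt1, Mthfd1 and Mthfd2l rose with LPS/siponimod. Shmt1 fell from 27.8 ± 5.16 CPM with LPS to 17.4 ± 2.54 CPM (SD, n = 3 per group; log2 fold change -0.68, standard error 0.19, edgeR quasi-likelihood adjusted p = 0.0411). Mthfd1, the cytosolic enzyme that interconverts the same folate forms, fell from 17.5 ± 4.13 to 7.69 ± 0.569 CPM (log2 fold change -1.19, standard error 0.21, quasi-likelihood adjusted p = 0.013). Mthfd2l was not a DEG (log2 fold change -0.15, standard error 0.27, quasi-likelihood adjusted p = 0.704). Shmt1 stayed a DEG in 1 of the 6 fits that left out a library, with an adjusted p of up to 0.141 (without LPS replicate 2), and was not a DEG without the filter on low counts (0.0615) or without the libraries numbered 3 (0.0765). Mthfd1 was a DEG in 3 of these 6 fits, with an adjusted p of up to 0.0635 (without LPS/siponimod replicate 1).

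The wider pathways were read from 6 lists with 82 other genes, of which 80 had a row and 68 enough counts to be tested. Among the 68, 14 rose and 12 fell with LPS/siponimod, against 13.6% and 11.7% of all genes tested. The median log2 fold change of the 68 was -0.08. The numbers with a rise or a fall depended on single libraries. Without LPS replicate 2 there were 5 with a rise and none with a fall, and without LPS/siponimod replicate 1 there were 4 and 1. Without LPS/siponimod replicate 3 there were 4 and 2, without LPS replicate 1 there were 6 and 6, without LPS/siponimod replicate 2 there were 9 and 8, and without the libraries numbered 3 there were 9 and 10. With the replicate number as a block there were 16 and 14, against 17.7% and 16.4% of all genes tested.

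Other folate enzymes and carriers included 1 gene that rose and 4 that fell among 15 tested, with a median of -0.41. Fpgs, which adds the glutamate tail that holds folate in the cell, was at 6.13, 7.84 and 9.23 CPM with LPS and 23.6, 19.8 and 26.8 CPM with LPS/siponimod (log2 fold change 1.60, standard error 0.21, quasi-likelihood adjusted p = 0.00735). Slc46a1, the proton-coupled folate transporter, went the other way, with 20.7, 21.7 and 17.2 CPM against 5.42, 8.85 and 5.56 CPM (log2 fold change -1.59, standard error 0.24, quasi-likelihood adjusted p = 0.0098). Tyms, the thymidylate synthase that uses a folate-bound carbon for DNA precursors, fell most within this list, from 18.8, 13.0 and 9.61 CPM to 1.83, 3.70 and 1.66 CPM (log2 fold change -2.53, standard error 0.42, quasi-likelihood adjusted p = 0.0113). When single libraries were dropped, Fpgs remained a DEG in all 6 fits, Slc46a1 in 5 (adjusted p = 0.0508 without LPS replicate 2) and Tyms in 4 (up to 0.0589, without LPS/siponimod replicate 1). With Shmt1 and Mthfd1, these are all DEGs of the list.

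Purine synthesis, which consumes one-carbon units, had 6 genes that rose and 1 that fell among 10 tested, with a median of 0.65. Ppat, the amidotransferase of its first committed step, was at 14.2, 17.9 and 24.1 CPM with LPS and at 76.4, 54.0 and 70.3 CPM with LPS/siponimod (log2 fold change 1.84, standard error 0.24, quasi-likelihood adjusted p = 0.00733), and it was a DEG in all 6 fits with a library left out. Paics, which catalyses 2 later steps, rose by a log2 value of 0.66 (standard error 0.12, quasi-likelihood adjusted p = 0.013), and Impdh2, which leads towards guanine nucleotides, by 0.93 (0.24, adjusted p = 0.0336). Prps2, which makes the phosphoribosyl donor, was the gene that fell (log2 fold change -0.87, standard error 0.21, quasi-likelihood adjusted p = 0.0272). Paics was a DEG in 3 of the fits that left out a library (up to 0.062, without LPS/siponimod replicate 1). Impdh2 and Prps2 were each DEGs in at most 2 of the fits that left out a library, with adjusted p-values of up to 0.128 and 0.113, both without LPS/siponimod replicate 1.

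In the list for the methionine cycle, transsulfuration and glutathione, 5 genes rose and 1 fell among 14 tested, with a median of 0.52. Chac1, an enzyme that degrades glutathione and a known ATF4 target, had 4.24, 2.67 and 2.75 CPM with LPS and 31.0, 38.5 and 44.4 CPM with LPS/siponimod (log2 fold change 3.56, standard error 0.26, quasi-likelihood adjusted p = 0.00295). Mat2b, a regulatory subunit of methionine adenosyltransferase (0.90, adjusted p = 0.0255), and Gclm, the modifier subunit of the enzyme that starts glutathione synthesis (0.82, adjusted p = 0.0361), rose less. Ahcy, which clears S-adenosylhomocysteine, fell by 0.71 on the log2 scale (quasi-likelihood adjusted p = 0.027). Cbs, the enzyme that supplies the substrate of Cth, had at most 1 count in any library and was not tested. Mat2b, Gclm and Ahcy each lost their calls in some fits that left out a library, with adjusted p-values of up to 0.108 and 0.112 for Mat2b and Ahcy without LPS/siponimod replicate 1, and 0.112 for Gclm without LPS/siponimod replicate 3. Without both libraries numbered 3, Mat2b (0.0602) and Ahcy (0.0659) were not DEGs, at log2 fold changes of 0.77 and -0.79.

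Around aspartate, glutamate, glutamine and alanine, 2 genes rose and 4 fell among 14 tested (median -0.40). Gpt2, the mitochondrial alanine aminotransferase, was at 1.73, 1.09 and 2.85 CPM with LPS and 7.81, 9.99 and 9.0 CPM with LPS/siponimod (log2 fold change 2.24, standard error 0.38, quasi-likelihood adjusted p = 0.0118), a DEG in all 6 fits with a library left out. Both aspartate aminotransferases, whose product Asns consumes, fell. Got1, the cytosolic one, went from 86.2, 124.2 and 160.2 CPM to 40.9, 55.0 and 37.3 CPM (log2 fold change -1.48, standard error 0.27, quasi-likelihood adjusted p = 0.0142), and Got2, the mitochondrial one, had a log2 fold change of -0.99 (standard error 0.20, adjusted p = 0.0189). Asrgl1, which hydrolyses asparagine, had one of -1.25 (standard error 0.28, quasi-likelihood adjusted p = 0.0242), and Asl, which splits argininosuccinate, rose by 0.65 (adjusted p = 0.0403), a call that was lost with the replicate number as a block (0.0574), without the filter on low counts (0.0575) and without the libraries numbered 3 (0.0506). Got1 was a DEG in 3 of the 6 fits with a library left out, Got2 in 2, and Asrgl1 and Asl in 1 each. When LPS/siponimod replicate 1 was left out, the quasi-likelihood adjusted p was 0.0721 for Got1, 0.0892 for Got2 and 0.125 for Asl. Without LPS replicate 2 that of Asrgl1 was 0.117.

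In the remaining lists no gene rose in the fit without the block, and with the replicate number as a block P4ha2, a subunit of the same hydroxylase family as P4ha1 (quasi-likelihood adjusted p = 0.0348), and Srr, the serine racemase (0.0435), were DEGs with a rise, both named after their values were seen. Of 7 tested genes of other proline and ornithine metabolism, P4ha1, a subunit of the prolyl hydroxylase of collagen, fell from 356 ± 93.8 CPM with LPS to 165 ± 13.5 CPM (SD, n = 3 per group; log2 fold change -1.11, standard error 0.21, edgeR quasi-likelihood adjusted p = 0.0158). Among 8 genes of glycine cleavage and serine use, Sdsl, a serine dehydratase-like gene, fell by 1.74 on the log2 scale (standard error 0.49, quasi-likelihood adjusted p = 0.0435). Both calls were lost in some fits that left out a library, P4ha1 with up to 0.0793 (LPS/siponimod replicate 1) and Sdsl with up to 0.156 (LPS replicate 2). With all libraries, Sdsl also lost its call under limma-voom (adjusted p = 0.0554) and without the filter on low counts (0.0673).

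**Figure D5:**
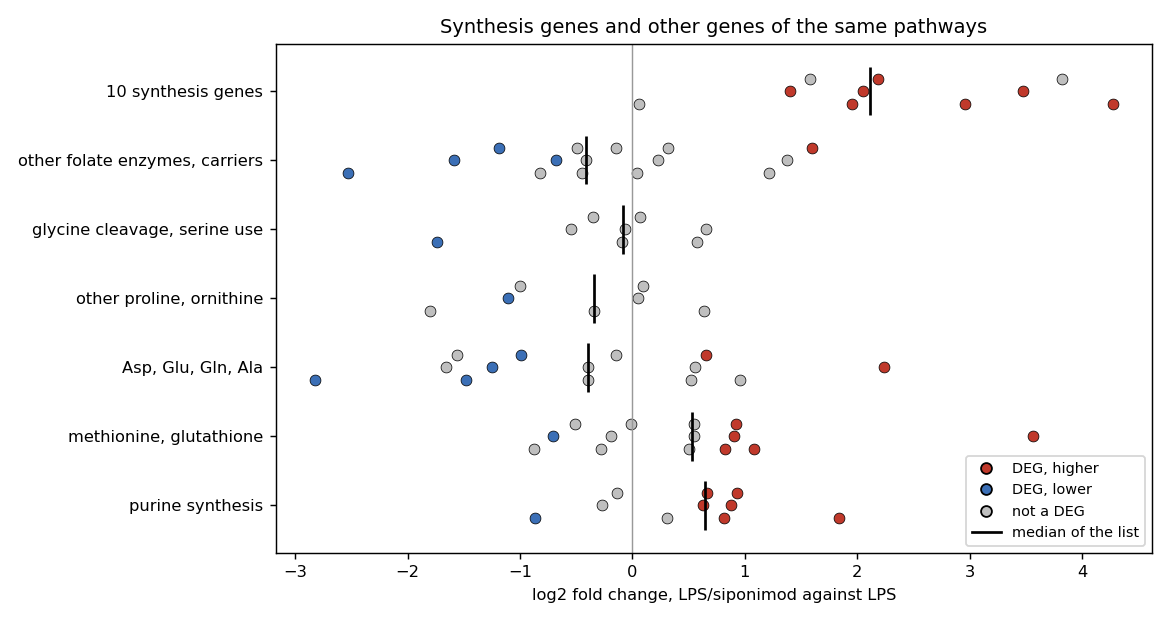
Log2 fold changes of the 10 genes and of the tested genes of 6 lists of other genes from the same pathways. Each point is a gene, red for DEGs with a rise, blue for DEGs with a fall and grey for the rest, and black lines are list medians. The median is 2.12 for the 10 genes, between -0.41 and -0.08 for 4 lists, 0.52 for methionine and glutathione and 0.65 for purine synthesis.

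Atf4 itself was at 156.8, 124.0 and 160.0 CPM with LPS and at 861.7, 677.8 and 860.2 CPM with LPS/siponimod (log2 fold change 2.44, standard error 0.19, quasi-likelihood adjusted p = 0.00321). LPS replicates 1 and 3 were close to each other, unlike for Phgdh or Psat1, and the differences of Atf4 within pairs were 2.46, 2.45 and 2.43. ATF4 binds with C/EBP partners to elements that contain the letters TGATGNAA. These were searched on both strands, as the only motif, in RefSeq promoters of the assembly GRCr8, which run from 250 bases before to 50 bases after the annotated start. Of the 10 genes 9 had an entry, all except Aldh18a1. Only the first entry of each gene was searched, whereas the share of all promoters counts every entry. Elements outside this stretch or at other starts of a gene were not searched. Pycr1 was the 1 gene of the 9 with a match, compared with 3.98% of all 33469 promoters, 1.90% of those of the genes tested and 2 of 64 among the other pathway genes. The match lies 131 to 124 bases before the start on the strand of the gene, and is shown in capitals in the stretch from 171 to 84 bases before the start, since it is the only one among these genes:
Pycr1: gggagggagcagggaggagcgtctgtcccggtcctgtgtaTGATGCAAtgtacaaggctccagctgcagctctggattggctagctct
No binding was measured in these libraries, and the gene with the match is among those whose difference did not pass the test.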

How the data were processed

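Total read counts per gene, without normalization, were deposited for 6 libraries of single-end reads. The authors demultiplexed with bcl2fastq (version 2.20.0.422, per the submitters' processing notes), trimmed and mapped the reads to the rat genome mRatBN7.2 in the CLC Genomics Workbench. The handling of strand, introns and reads matching several genes is not given in the sources used here. A single row without a name, holding no counts, was left out. The RefSeq tables belong to another assembly (GRCr8), so that no genome coordinates are printed, and promoter positions are distances from the start annotated there. The gene table was used to match 2 older symbols (Prodh1, Adss), and 3 listed genes (Pepd, Prps1, Cldn5) were not analysed here.

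The software was edgeR (version 4.0.16), limma (version 3.58.1) and DESeq2 (version 1.42.0), run under R 4.3.3. filterByExpr (minimum count 10, minimum total 15) kept 11977 of 23139 genes. TMM factors, a quasi-likelihood fit (glmQLFit, glmQLFTest) on the condition alone and Benjamini-Hochberg adjustment over all genes gave the DEGs. Standard errors are the log2 fold change divided by the square root of F. Differences within pairs use log2 CPM with a prior count of 2, and isoenzyme ratios an added count of 0.5. Of the 4 ratios computed, 1 is not reported here. The procedure was tested on simulated data, but the outcome is not given here and no call rests on it. The libraries of a group are biological replicates per the study's methods.

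Same-numbered libraries deviated together from their group means (correlations of 0.42, 0.545 and 0.611, against -0.534 to 0.086 for different numbers), so that the numbers were treated as pairs on this evidence, and blocking on them was an alternative. Others were RLE, DESeq2, limma-voom, the likelihood ratio test, no filter, a mean of at least 1 CPM and each library left out. Leaving out both libraries numbered 3, and the block for isoenzyme ratios, were added after the data were seen. The 10 genes and all lists were chosen with earlier results of these data known. Named were the 10 genes, 3 isoenzymes, Atf4, up to 3 DEGs per direction and list with the smallest p, the most abundant marker of each list and markers at 0, and the 5 genes most like the 10. Other markers, Cbs, Pycr3, P4ha2, Srr and the low genes in the closing section were chosen after their values were seen.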

Additional observations from a re-analysis of the deposited data

How the results depend on the processing

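Of the 10 genes, 7 were DEGs with RLE normalization, DESeq2, limma-voom, the likelihood ratio test, no filter, a mean of at least 1 CPM (under which Cth was not tested) and without the libraries numbered 3, and 8 with the replicate number as a block, which added Cth. Among the other pathway genes named, the block added P4ha2 and Srr and lost Asl, limma-voom lost Sdsl, the fit without a filter lost Asl, Sdsl and Shmt1, and the fit without the libraries numbered 3 lost Shmt1, Ahcy, Mat2b and Asl. None of the 10 was a DEG with a fall in any of these settings or with 1 library left out. With 1 library left out, between 4 and 7 of the 10 were DEGs, 4 without LPS replicate 2 or LPS/siponimod replicate 1. All DEGs then numbered between 651 and 3713, against 3036 with all libraries and 2542 to 4074 with the other tools, filters and the block. Other pathway genes with a rise numbered between 4 and 15 and those with a fall between 0 and 15. Without both libraries numbered 3, the number with a rise was 9, against 14. The median log2 fold change of the 10 genes lay between 1.81 (without LPS/siponimod replicate 3) and 2.35 (without LPS replicate 3). Differences of isoenzyme ratios ranged from 2.46 to 3.24 for Shmt2:Shmt1, 1.97 to 2.48 for Mthfd2:Mthfd2l and 1.04 to 1.41 for Mthfd1l:Mthfd1. With the replicate block they were 2.74, 2.27 and 1.23, where an exact sign-flip test on 3 pairs cannot go below p = 0.25. The sign of values that were not called turned for Mthfd1l without LPS replicate 2 (-0.10) and without LPS/siponimod replicate 3 (-0.12), with a range up to 0.26, and for Mthfd2l without LPS replicate 3 (0.20, with a range down to -0.29) and without both libraries numbered 3 (0.17). The cause of these shifts was not tested. Low counts, at most 13 for Cth and 41 for Pycr1 in the LPS libraries, limit what can be said of these genes.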

Other observations

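Some pathway genes with few reads were counted mainly in the libraries numbered 3 and were not tested. Gldc, the decarboxylase of the glycine cleavage system, had 0, 1 and 46 counts in LPS replicates 1, 2 and 3 and 2, 4 and 66 in the LPS/siponimod libraries. P4ha3, a subunit of a collagen prolyl hydroxylase, had 1, 0 and 45 counts in the LPS group against 7, 6 and 66 in the LPS/siponimod group. Cdo1, which oxidises cysteine, had 3, 0 and 9 in the LPS group against 12, 4 and 84 after siponimod. Cth had its highest count in each group in the same libraries.

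The genes outside the list whose log2 CPM over the 6 libraries was most like the mean of the 10 genes were Prickle1, Meaf6, Fscn2, a gene listed only by an Ensembl identifier and Zbed3. Their Pearson correlations with that mean, each gene being centred and scaled, were 0.993, 0.993, 0.993, 0.991 and 0.99 over 6 libraries that fall into 2 conditions, given here as a description. Prickle1 had 1, 0 and 9 counts in the LPS group against 61, 92 and 424 after siponimod. Each of these genes was highest in replicate 3 of both groups, as was the mean they were chosen to resemble, so that this follows from the choice.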
